A study of Antirrhinum majus with 21 samples.

Results

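Corolla transcripts of magenta snapdragon flowers with the wild alleles of A. m. pseudomajus were compared with those of white flowers with the alleles of the A. majus stock line rosea-dorsea. The comparison holds 6 of the 21 libraries of the series, chosen by their labels, with earlier results of these data known. In the magenta genotype, ROSpse_elpse, 3 plants carried the dominant ROS allele and the recessive el allele of A. m. pseudomajus. In the white genotype, rosdor_eldor, 3 plants carried the recessive ros and el alleles of rosea-dorsea. Each library is the corolla of a bud 5 to 10 mm long from a different plant, at stage 12 to 13, read as 50 bp single-end reads, and all plants grew together on outside benches. The labels name alleles at ROS and EL only and give no zygosity, so other differences between wild-derived and stock-line plants are part of the comparison.

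Snapdragon colour depends on anthocyanins, the magenta pigments of the petal epidermis. ROSEA (ROS) encodes MYB transcription factors that switch on genes of anthocyanin synthesis, and the linked locus ELUTA (EL) limits where in the corolla the pigment is made. A. m. pseudomajus is a wild magenta-flowered snapdragon and A. m. striatum a wild yellow-flowered one. The other 15 libraries, 3 from each of 5 genotypes, shared the estimate of the spread and give the levels set beside the results. ROSji7_elji7 (magenta) carried the alleles of stock line JI7, and ROSji7_ELstr and ROSpse_ELstr (eluta) joined a JI7 or pseudomajus ROS allele to the EL allele of A. m. striatum. rosstr_ELstr (white) carried the A. m. striatum alleles at both loci, and rosrec_elpse (pale) joined a recombinant ros allele to the el allele of A. m. pseudomajus. By its label, that recombinant allele is from A. m. striatum upstream and from A. m. pseudomajus downstream.

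The files used here pair gene IDs with no names or functions, so genes are given by ID, no role is attached to them, and the corolla label could not be checked against marker genes. The 3 magenta libraries held 23051496, 23146140 and 31579550 estimated reads. The white ones held 8926585, 29420437 and 34576676, and replicate 1, the shallowest of all 21, stood apart. Across genes its Spearman correlation was 0.924 to 0.930 with the other white libraries and 0.928 to 0.944 with the magenta ones, against 0.966 between white replicates 2 and 3. All magenta plants were of family A181, while the white plants came from A181, A174 and A182 in the order of their replicate numbers. The label of plant family thus overlaps with genotype, and white replicate 1 is the one white plant from the magenta plants' family.

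Of 24674 tested genes, 127 (0.515%) differed between magenta and white corollas at a Benjamini-Hochberg adjusted p under 0.05 by edgeR's quasi-likelihood test. In magenta corollas 60 (0.243%) were higher and 67 (0.272%) lower. Higher genes rose further than lower genes fell, with a median log2 fold change of 2.56 against -1.49, beside -0.01 over all tested genes. A log2 fold change of at least 2 was found for 34 of the higher genes and of -2 or lower for 27 of the lower ones. The libraries of the groups did not overlap in 124 of the 127, against 3709 of all tested genes (15.0%). In bulk corolla RNA, fewer cells of a type and less RNA per cell cannot be told apart. Leaving out white replicate 1 gave 189 calls, 81 higher and 108 lower, and 98 of them were among the 127. Leaving out any of the other 5 libraries gave 13 to 59 calls.

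In most called genes the wild magenta genotype had the most extreme mean. It was also extreme more often than the white genotype among all tested genes. ROSpse_elpse had the highest of the 7 genotype means in 48 of the 60 higher genes (80.0%, against 20.7% of tested genes) and the lowest in 57 of the 67 lower genes (85.1%, against 21.7%). rosdor_eldor had the lowest mean in 16 of the higher genes (26.7%, against 6.11%) and the highest in 9 of the lower genes (13.4%, against 6.16%). Since both groups' libraries chose these genes, the shares are a description. All 3 magenta libraries lay above the other 18 libraries of the series in 30 called genes and below them in 35, against 328 (1.33%) and 252 (1.02%) of all tested genes.

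The largest rises were in genes that were close to silent in white corollas. AnMG0006039410 (scaffold454 635871 to 636562, plus strand) stood at 2.30, 1.88 and 1.71 CPM (edgeR counts per 1e6 reads after TMM scaling) in the 3 magenta libraries and at 0 in all white ones, at least 47.9-fold higher. Its means in the other 5 genotypes were between 0 and 0.0331 CPM, so only the wild magenta corollas held more than traces, and its span overlaps that of another gene. AnMG0000686100 (scaffold1195 400305 to 402362, plus strand) showed the same form, with 0.985, 1.13 and 1.24 CPM against 0 in white, at least 28.3-fold higher, and at most 0.00930 CPM as a mean elsewhere. AnMG0003410500 (scaffold266 301493 to 302028, minus strand) was at 2.11, 8.15 and 0.993 CPM against 0, 0 and 0.0565. AnMG0002921300 (scaffold337 65364 to 66835, plus strand) was at 4.13, 4.01 and 12.1 CPM against 0, 0 and 0.0283. These counts gave ratios of 131 (95% counting interval 36.0 to 1089) and 553 (98.8 to 21868). The genes were uneven within the magenta group but far above every white library. AnMG0004529800 (scaffold334 112466 to 114257, plus strand) was at 1.45, 3.30 and 2.61 CPM against 0.126, 0.0318 and 0, and again below 0.05 CPM as a mean in the other 5 genotypes.

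Other large rises had counterparts elsewhere in the series. AnMG0207956200 (scaffold663 217406 to 221243, minus strand) was at 17.8, 26.1 and 27.2 CPM in magenta and 0.126, 0.0636 and 0.0565 in white corollas, 8.35 ± 1.70 apart on the log2 scale (SE; edgeR adjusted p 0.0382). AnMG0000524600 (scaffold1047 110939 to 123645, minus strand) was at 11.7, 14.6 and 11.6 CPM against 0.506, 0.382 and 0.198, 5.24 ± 0.79 apart on the log2 scale (SE; edgeR adjusted p 0.0106). By means, both genes split the 7 genotypes in the same way. They were high in ROSji7_elji7 (24.5 and 11.8 CPM), ROSji7_ELstr (42.0 and 18.3) and rosrec_elpse (30.5 and 14.3), and low in ROSpse_ELstr (0.0243 and 0.264) and rosstr_ELstr (0.360 and 0.469). The ROSji7_elji7 plants were uneven, at 21.2, 13.2 and 1.12 CPM for AnMG0000524600 and with an SD of 22.5 for AnMG0207956200. ROSpse_ELstr and ROSpse_elpse thus stood on opposite sides, although both carry the pseudomajus ROS allele. AnMG0207956200 lost its call when any 1 of the 6 libraries was left out, at an edgeR adjusted p of 0.0667 to 0.187. AnMG0000524600 lost it without white replicate 2 or 3, at up to 0.0683.

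Of the genes near 0 in white corollas, AnMG0006039410 and AnMG0000686100 lost their calls, or fell under the low-count filter, without white replicate 2 or 3 or any magenta replicate, and AnMG0004529800 likewise. The highest edgeR adjusted p among these fits was 0.110, 0.130 and 0.170 for them in that order. AnMG0002921300 lost its call without white replicates 2 or 3 or magenta replicates 2 or 3, at up to 0.102, and AnMG0003410500 with any 1 of the 6 libraries left out, at up to 0.160. DESeq2 did not call AnMG0000686100. It called the other 126 of the 127, in a list of 709 genes.

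The largest falls included genes with higher means in every other genotype. AnMG0003514000 (scaffold1933 30651 to 32349, minus strand) was at 0.0469, 0.125 and 0.0621 CPM in magenta and 23.4, 37.3 and 14.4 in white corollas, and fell by 8.25 ± 1.41 on the log2 scale (SE; edgeR adjusted p 0.0189). Its means in the other 5 genotypes were 14.8 to 27.2 CPM, close to white. The wild magenta plants were near 0, and so was 1 plant of another genotype, ROSpse_ELstr replicate 3, at 0.0730 CPM. AnMG0207145010 (scaffold643 59516 to 60817, plus strand) was at 0.141, 0.209 and 0.372 CPM against 0.885, 3.05 and 4.07, with 2.91 to 7.74 CPM elsewhere. AnMG0807621100 (scaffold153 617906 to 618759, minus strand) was at 0.0469, 0.0836 and 0.0621 CPM against 3.54, 3.18 and 1.84, and was also low in rosrec_elpse at 0.120 CPM. AnMG0000378900 (scaffold383 320431 to 322649, plus strand) was at 0.0469, 0.251 and 0.0931 CPM against 1.39, 1.88 and 1.58, and was low as well in ROSji7_ELstr, at 0.123 CPM. The log2 fold changes of the last 3 genes were -3.45, -5.36 and -3.60 (edgeR adjusted p 0.0480, 0.0474 and 0.00809). Only AnMG0000378900 of these 4 kept its call with each of the 6 libraries left out in turn. AnMG0003514000 lost it without white replicate 2 or any magenta replicate, at an edgeR adjusted p of up to 0.0859, AnMG0207145010 when any library but white replicate 1 was left out, at up to 0.198, and AnMG0807621100 when any was, at up to 0.177.

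Per transcript length, in the deposited TPM, the most abundant called genes were AnMG0005820800, AnMG0006425900, AnMG0005998800 and AnMG0005458300. AnMG0005820800 (scaffold1155 369168 to 370504, plus strand) averaged 384 TPM in magenta and 148 in white corollas, AnMG0006425900 (scaffold81 454698 to 458308, plus strand) 233 and 86.2, and AnMG0005998800 (scaffold32 40148 to 42961, plus strand) 113 and 218. In counts these were changes of 1.29 ± 0.23, 1.44 ± 0.30 and -0.99 ± 0.19 on the log2 scale (SE; edgeR adjusted p 0.0202, 0.0427 and 0.0323). AnMG0006425900 was at 295, 240 and 277 CPM against 139, 41.8 and 119, so the white plants varied more than the magenta ones. Its call ended when any library but white replicate 1 was left out, at an edgeR adjusted p of up to 0.123. That of AnMG0005998800 did so too, at up to 0.153, and that of AnMG0005820800 without white replicate 2 or 3 or magenta replicate 1 or 2, at up to 0.0957. AnMG0005458300 (scaffold174 1124145 to 1127274, minus strand) was at 232, 130 and 128 CPM against 48.2, 51.6 and 38.1, so counts rose by 1.83 ± 0.32 on the log2 scale (SE; edgeR adjusted p 0.0202). In TPM, which weighs its 4 transcripts by length, the groups overlapped: 224, 173 and 153 in magenta and 217, 98.2 and 113 in white. TPM of the groups overlapped in 6 of the 127 called genes, and the means differed in the direction of the fold change in all 127.

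In 3 called genes, picked after their values were seen, the means of the other coloured genotypes lay between those of wild magenta and white rosstr_ELstr. The ranges below join magenta ROSji7_elji7 with the eluta and pale genotypes, so they give no order among these. AnMG0004646600 (scaffold1168 274858 to 276765, plus strand) was at 386, 140 and 64.3 CPM in magenta and 6.20, 18.2 and 7.07 in white rosdor_eldor corollas. Its means were 35.3 to 45.1 CPM in the other coloured genotypes and 7.79 in white rosstr_ELstr. AnMG0207649800 (scaffold60 278027 to 283842, minus strand) averaged 189 CPM in magenta plants and less in white ones, with 68.7 to 105 in the other coloured genotypes and 42.5 in rosstr_ELstr. AnMG0005458300 had 56.6 to 98.8 CPM in the other coloured genotypes, with an SD of 58.2 at the highest mean, that of ROSji7_elji7, and 37.2 in rosstr_ELstr. The log2 fold changes between the wild magenta and rosdor_eldor corollas were 4.21 ± 0.69 for AnMG0004646600 and 2.11 ± 0.43 for AnMG0207649800 (SE; edgeR adjusted p 0.0156 and 0.0389). The call of AnMG0004646600 ended without white replicate 3 or magenta replicate 1, at up to 0.0841, and that of AnMG0207649800 when any 1 library was left out, at up to 0.156. That of AnMG0005458300 ended without white replicate 2 or 3 or magenta replicate 1 or 2, at an edgeR adjusted p of up to 0.0985. Among the 60 higher genes, rosstr_ELstr lay below the means of all 4 other coloured genotypes in 11 (18.3%, against 17.8% of tested genes). Among the 67 lower genes it lay above them in 8 (11.9%, against 15.8%).

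The assembly sequence that bears the name of ROS, ros_assembly, carried 125 placed genes, of which 80 were tested. Of these, 7 (8.75%) were called, against 0.515% of all tested genes, 2 of them higher and 5 lower in magenta (0.243% and 0.272% of all tested genes). The median log2 fold change of the 80 was -0.09, and 57 of them lay within 1 of 0. The libraries of the groups did not overlap in 24 of the 80 (30.0%, against 15.0% of all tested genes). Called genes lay among neighbours that were not called, from the start of the sequence to 679134.

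**Figure D1:**
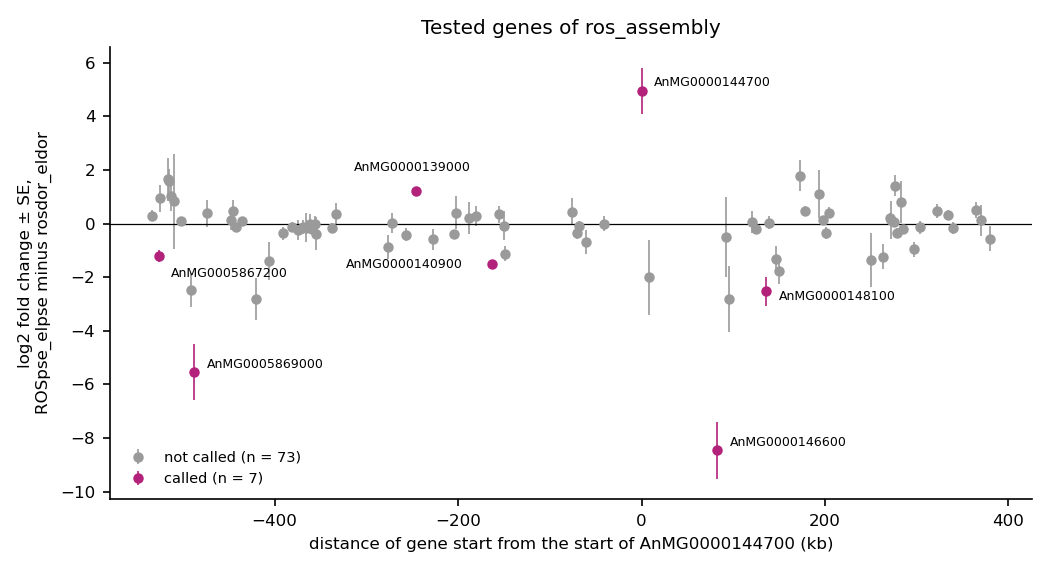
Log2 fold change (magenta ROSpse_elpse minus white rosdor_eldor, with SE bars) of the 80 tested genes of ros_assembly against distance from the start of AnMG0000144700 in kilobases. The 7 called genes are magenta, and most of the others lie close to 0.

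AnMG0000144700 (541660 to 544383, plus strand) was the strongest riser there, at 49.1, 22.0 and 12.5 CPM in magenta and 0.885, 1.72 and 0.0848 in white corollas. Every library of a coloured genotype lay above those of both white genotypes. In counts its rise was 4.96 ± 0.86 on the log2 scale (SE; edgeR adjusted p 0.0194), and its call ended without white replicate 3 or magenta replicates 1 or 2, at up to 0.0683. AnMG0000139000 (295677 to 302251, minus strand) was at 57.8, 72.6 and 68.9 CPM against 27.2, 30.6 and 28.9, and rose by 1.20 ± 0.11 on the log2 scale (SE; edgeR adjusted p 1.80e-04). Of the other genotypes only ROSpse_ELstr, with the same ROS allele, was as high, at 70.8 CPM, and the remaining 4 means were 22.8 to 25.4 CPM. AnMG0000140900 (378255 to 382428, plus strand) was instead set apart by white corollas, at 15.3, 19.9 and 16.8 CPM in magenta and 46.8, 54.3 and 47.0 in white, with 22.6 to 32.0 CPM elsewhere. It fell by 1.51 ± 0.17 on the log2 scale (SE; edgeR adjusted p 0.00125). The calls of AnMG0000139000 and AnMG0000140900 held with each of the 6 libraries left out in turn.

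AnMG0000146600 (624419 to 626533, minus strand) fell furthest, at 0.188, 0.0418 and 0.0310 CPM in magenta and 47.4, 32.5 and 9.47 in white corollas. AnMG0005869000 (53672 to 58009, minus strand) was at 0.516, 0.167 and 2.89 CPM against 42.0, 66.4 and 63.8. The log2 fold changes were -8.46 ± 1.05 and -5.53 ± 1.04 (SE; edgeR adjusted p 0.00228 and 0.0263). AnMG0005867200 (15179 to 16002, minus strand) was steady within the magenta group at 29.0, 30.3 and 28.5 CPM, against 66.5, 77.2 and 60.0 in white, and fell by 1.21 ± 0.21 on the log2 scale (SE; edgeR adjusted p 0.0181). AnMG0000148100 (677893 to 679134, plus strand) was low in both groups, at 0.141, 0.167 and 0.186 CPM against 1.52, 0.954 and 0.565, and its span overlaps that of a same-strand gene. Its log2 fold change was -2.53 ± 0.55 (SE; edgeR adjusted p 0.0494), and every 1 of the 6 leave-outs ended the call, at up to 0.179. The call of AnMG0000146600 held with each of the 6 libraries left out. That of AnMG0005869000 ended without white replicate 2 or 3 or magenta replicate 1 or 2, at an edgeR adjusted p of up to 0.108. AnMG0005867200 lost its call without white replicate 2 or any magenta replicate, at up to 0.0679.

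**Figure D2:**
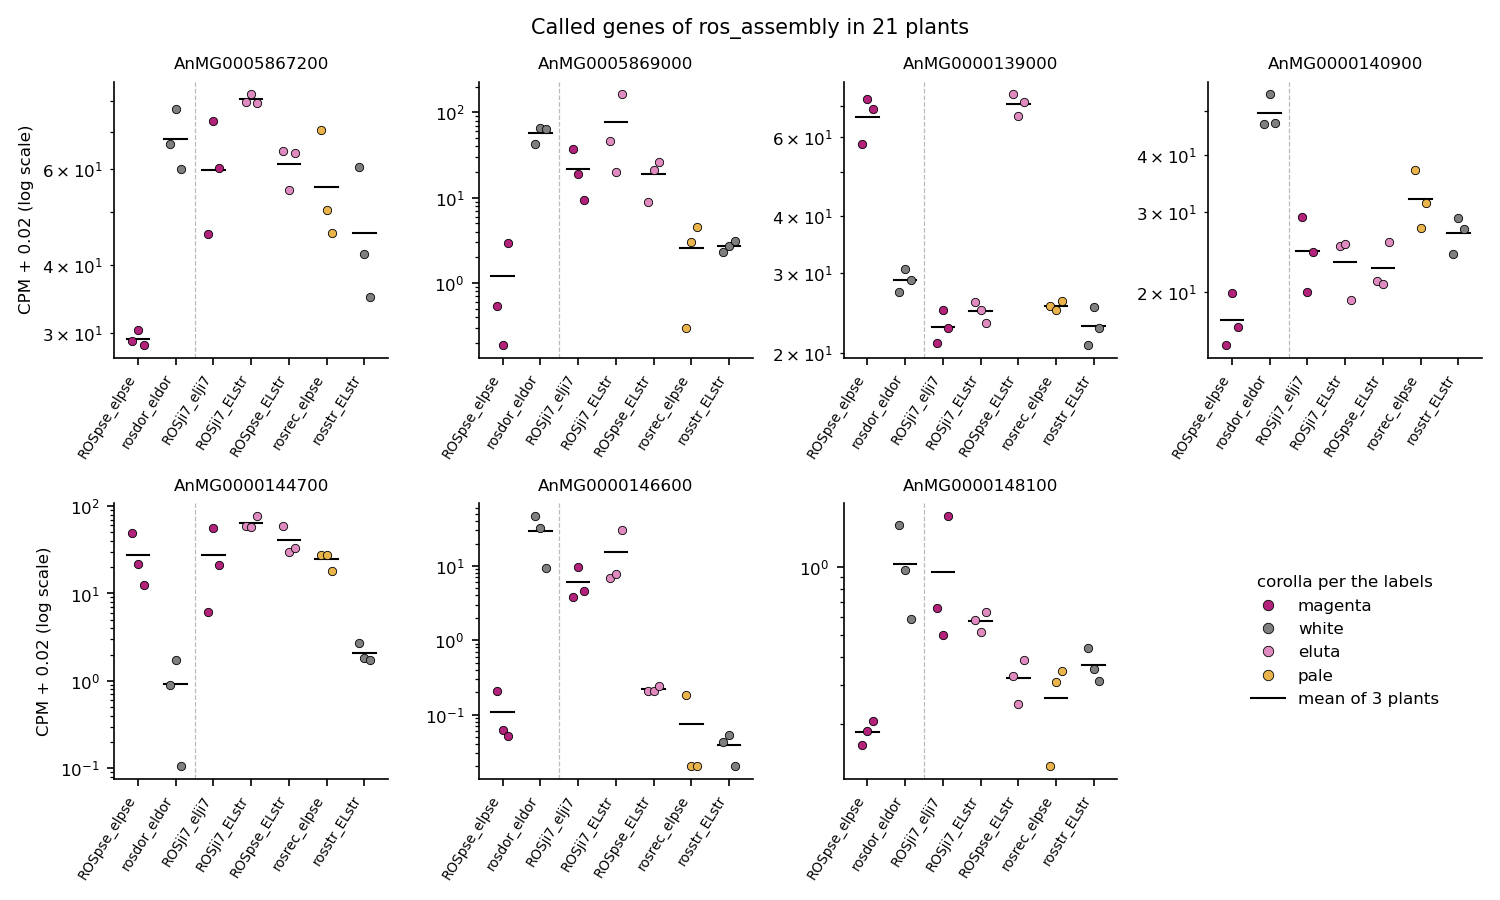
CPM plus 0.02 on a log axis of the 7 called genes of ros_assembly in each of the 21 plants, by genotype, with the mean of 3 plants as a line and colours for the corolla colour of the labels. To the left of the dashed line are the magenta and white genotypes compared.

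Called genes gathered on a few assembly sequences beyond ros_assembly. Of 1316 sequences with tested genes, 80 held a call and 66 of them held 1. The 5 with at least 4 calls together held 39 of the 127. A called gene was next to another called gene among tested genes in 15 cases (11.8%, against 0.948% of tested genes). The largest number was on scaffold1195, with 14 of 118 tested genes called, 5 higher and 9 lower. On scaffold1155 7 of 61 were called, all higher, on scaffold808 7 of 92, on ros_assembly 7 of 80, and on scaffold1088 4 of 112, all lower.

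Next to these, scaffold593 held 3 called genes, all lower, within 28385 to 42200. AnMG0005865600 (28385 to 31453, plus strand) averaged 0.720 CPM in magenta and 6.49 in white corollas, AnMG0005865300 (31463 to 31917, minus strand) 0.0695 and 0.712, and AnMG0005864900 (37534 to 42200, minus strand) 10.7 and 20.8. Their levels followed the origin of the ROS allele, stock line or wild. AnMG0005865600 averaged 5.86 and 7.69 CPM in the JI7 genotypes ROSji7_elji7 and ROSji7_ELstr, against 0.518, 1.13 and 1.24 in ROSpse_ELstr, rosstr_ELstr and rosrec_elpse. AnMG0005864900 showed the same split, with 23.7 and 23.5 against 11.4, 5.88 and 7.35 CPM. On ros_assembly, AnMG0000146600 averaged 6.05 and 15.2 CPM in the JI7 genotypes and at most 0.197 in the other wild-allele genotypes. The split was less clean for AnMG0005869000, where ROSpse_ELstr, at 18.8 CPM, came close to ROSji7_elji7, at 21.8.

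This split was then counted, after it had been seen. The means of the 3 genotypes with stock-line ROS alleles were the 3 highest in 6 of the 10 genes called on scaffold593 and ros_assembly, and in 24 of all genes tested there (14.0%), against 4.04% of all tested genes. The split was defined on these genes, so the count restates it and supports nothing further. The same holds for the counts of genotype splits below. These 6 were AnMG0005865600, AnMG0005865300, AnMG0005864900, AnMG0005869000, AnMG0000146600 and AnMG0000148100. The calls of AnMG0005865600, AnMG0005865300 and AnMG0005864900 were kept in 3, 1 and 0 of the 6 fits that left out 1 library.

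The called genes of scaffold1195 showed another split of the genotypes. AnMG0000156400 (221404 to 225513, minus strand) was at 0.328, 0.209 and 0.0621 CPM in magenta and 17.7, 21.9 and 23.9 in white corollas, and fell by 6.78 ± 0.87 on the log2 scale (SE; edgeR adjusted p 0.00228). It was high in ROSji7_elji7 (31.7 CPM) and rosrec_elpse (26.1 CPM), and lower in the 3 genotypes with the ELstr allele, at 1.05 to 5.36 CPM. AnMG0001002600 (485067 to 487089, minus strand) was at 4.69, 4.85 and 3.07 CPM against 20.9, 25.7 and 35.2, with 81.1 and 77.9 CPM in ROSji7_elji7 and rosrec_elpse and 4.78 to 15.6 with ELstr. It fell by 2.70 ± 0.35 on the log2 scale (SE; edgeR adjusted p 0.00228). By means, the wild magenta plants thus lay with the ELstr genotypes. In contrast rosrec_elpse, which carries the same el allele as they do by its label, lay with the stock lines. The rosstr_ELstr plants were uneven for AnMG0000156400, at a mean of 5.36 CPM with an SD of 6.88.

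The mirror image was seen only in part among the higher genes of scaffold1195. In AnMG0000146610, AnMG0000896310 and AnMG0001020400 the magenta mean lay above white but below those with ELstr. AnMG0000146610 (208979 to 211732, minus strand) was at 1.03, 1.42 and 1.12 CPM in magenta and 0 in every white library, at least 29.6-fold higher. It averaged 7.02 to 7.75 CPM in the ELstr genotypes, 0.228 in ROSji7_elji7 and 0.278 in rosrec_elpse. AnMG0000896310 (883896 to 889668, plus strand) was at 4.13, 3.93 and 2.79 CPM against 0, 0.0318 and 0, a ratio of 262 with a 95% counting interval of 46.7 to 10401. It stood at 4.75 to 5.93 CPM with ELstr and at no more than 0.0274 in ROSji7_elji7 and rosrec_elpse. AnMG0000156400, AnMG0001002600, AnMG0000146610 and AnMG0000896310 kept their calls with each of the 6 libraries left out.

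Counted after it had been seen, rosdor_eldor, ROSji7_elji7 and rosrec_elpse were the 3 highest means in 5 of the 14 called genes of scaffold1195 and the 3 lowest in 3. Among its 118 tested genes they were the 3 highest in 18 (15.3%) and the 3 lowest in 9 (7.63%), against 2.21% and 2.51% of all tested genes. Of the called genes, the highest were AnMG0000156400, AnMG0000156600, AnMG0000157600, AnMG0000158100 and AnMG0001002600, and the lowest were AnMG0000146610, AnMG0000896310 and AnMG0001020400. AnMG0001020400 (1110942 to 1113090, minus strand) averaged 2.55 CPM in magenta, 0.469 in white, 0.116 and 0.140 in ROSji7_elji7 and rosrec_elpse, and 26.2 to 37.5 with ELstr. Its call, at an edgeR adjusted p of 0.0451, held only without white replicate 1 and reached 0.217. A further gene with this form lay outside scaffold1195: AnMG0000157700 (C8912611 1382 to 5355, minus strand) was at 0.704, 0.418 and 0.621 CPM in magenta against 15.9, 9.77 and 8.99. It averaged 19.2 and 11.3 CPM in ROSji7_elji7 and rosrec_elpse and 0.0823 to 1.26 with ELstr. It fell by 4.30 ± 0.87 on the log2 scale (SE; edgeR adjusted p 0.0362), and every 1 of the 6 leave-outs ended the call, at up to 0.170.

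On scaffold1155 and scaffold1387, all 10 called genes were higher in magenta, and the white plants shared their low level with rosrec_elpse. AnMG0005820200 (scaffold1155 383870 to 386287, plus strand) was at 101, 105 and 95.6 CPM in magenta and 35.2, 35.2 and 32.5 in white corollas. It averaged 18.4 CPM in rosrec_elpse and 55.5 to 66.2 in the other 4 genotypes. AnMG0005830400 (scaffold1155 137345 to 139641, plus strand) was at 48.6, 66.1 and 64.7 CPM against 38.2, 33.0 and 32.6, with 33.0 in rosrec_elpse and 37.8 to 46.8 elsewhere. The log2 fold changes were 1.55 ± 0.27 and 0.79 ± 0.12 (SE; edgeR adjusted p 0.0194 and 0.0108). AnMG0005825900 (scaffold1155 211379 to 211638, minus strand) was at 0.938, 0.836 and 0.807 CPM in magenta, and 0 in every white and every rosrec_elpse library, at least 21.2-fold higher than in white. It stood at 0.587 to 0.902 CPM in the other 4 genotypes, and its span overlaps that of a same-strand gene. The call of AnMG0005825900 held with each of the 6 libraries left out. AnMG0005820200 lost its call without white replicate 2 or 3 or magenta replicate 1 or 2, at an edgeR adjusted p of up to 0.0875, and AnMG0005830400 without white replicate 2 or 3 or magenta replicate 2, at up to 0.0679.

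Counted after it had been seen, rosdor_eldor and rosrec_elpse had the lowest pair of means in 9 of these 10 genes and in 30 of the 91 tested on both sequences (33.0%), against 4.34% of all tested genes. The exception was AnMG0005820800, with 27.1 CPM in rosrec_elpse and 25.8 in ROSji7_elji7. These sequences held none of the called genes that were lower in magenta.

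A dense group lay on scaffold808, where 7.61% of the tested genes were called, against 0.515% of all. All 7 lay within 73.9 kb (532083 to 605992), 6 lower and 1 higher in magenta, among 16 tested genes. The first and the last called gene set this span, so neither the share called inside it nor its median is a result. The median log2 fold change of the 16, called genes included, was -1.98, and 12 of them lay below 0. Over all 92 tested genes of scaffold808 the median was -0.18. AnMG0003529100 (582588 to 583254, minus strand) was at 30.7, 32.2 and 26.3 CPM in magenta and 96.0, 89.6 and 80.1 in white corollas, AnMG0003529500 (573047 to 573734, minus strand) at 2.25, 4.64 and 4.25 against 15.2, 31.8 and 21.7, and AnMG0003527500 (604519 to 605992, minus strand) at 0.798, 0.711 and 0.869 against 4.05, 8.65 and 5.06. They fell by 1.57 ± 0.24, 2.63 ± 0.42 and 2.90 ± 0.45 on the log2 scale (SE; edgeR adjusted p 0.0108, 0.0138 and 0.0108). In the other 5 genotypes they averaged 63.9 to 87.0, 17.7 to 27.4 and 2.80 to 6.05 CPM, so the wild magenta plants alone were low. AnMG0003182810 (549910 to 557261, plus strand) was the called gene of the span that rose, from a mean of 18.1 CPM in white to 37.2 in magenta, with 17.4 to 22.1 elsewhere. Its call likewise held only without white replicate 1, at an edgeR adjusted p of up to 0.150. AnMG0003529500 and AnMG0003529100 each overlap a gene on the other strand. AnMG0003529100 lost its call without magenta replicate 2, at an edgeR adjusted p of 0.0512, and both others without white replicate 2 or magenta replicate 1 or 2, at up to 0.0549 and 0.0679.

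On scaffold1088 all 4 called genes were lower in magenta, within 283618 to 760668. AnMG0004749400 (759110 to 760668, minus strand) was at 0.375, 0.627 and 0.310 CPM in magenta and 2.91, 6.65 and 3.93 in white corollas, AnMG0004728700 (283618 to 286779, plus strand) at 5.25, 4.14 and 3.35 against 15.9, 33.4 and 25.0, and AnMG0004734100 (389141 to 391712, plus strand) at 26.7, 16.8 and 13.0 against 36.9, 60.1 and 98.9. The log2 fold changes were -3.37 ± 0.56, -2.55 ± 0.43 and -1.80 ± 0.32 (SE; edgeR adjusted p 0.0156, 0.0173 and 0.0202). White replicate 1 was the lowest white library in all 3, and AnMG0004749400 was also low in ROSji7_ELstr, at 0.613 CPM. Each of these calls ended without white replicate 2, among others, with edgeR adjusted p of up to 0.0638, 0.0818 and 0.0992.

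The gene ID numbers, with position, connect several of these sequences. Over 245 sequences with at least 20 tested genes of the main ID series, the median absolute Spearman correlation of ID number and position was 0.992, and it was over 0.9 in 160. The files do not say that ID order is chromosome order. Ordered after the calls were seen, ID numbers rise through scaffold1387, scaffold1155, scaffold1105 and scaffold593 (5805500 to 5866500) into the start of ros_assembly (5867000 to 5875000). Further along ros_assembly they jump to a range that begins at 137700 and goes on, with further jumps, through scaffold1195 and scaffold383. The link across the jump is thus position on ros_assembly, not ID order. These 7 sequences held 428 tested genes (1.73%) and 37 of the 127 calls (29.1%), or 8.64% called, against 0.371% of the genes elsewhere. Of the 37, 17 were higher and 20 lower. The calls changed sign along the series: all 10 on scaffold1387 and scaffold1155 were higher, and all 3 on scaffold593 were lower. On ros_assembly and scaffold1195 both directions occurred, and all 3 calls of scaffold383 were lower.

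**Figure D3:**
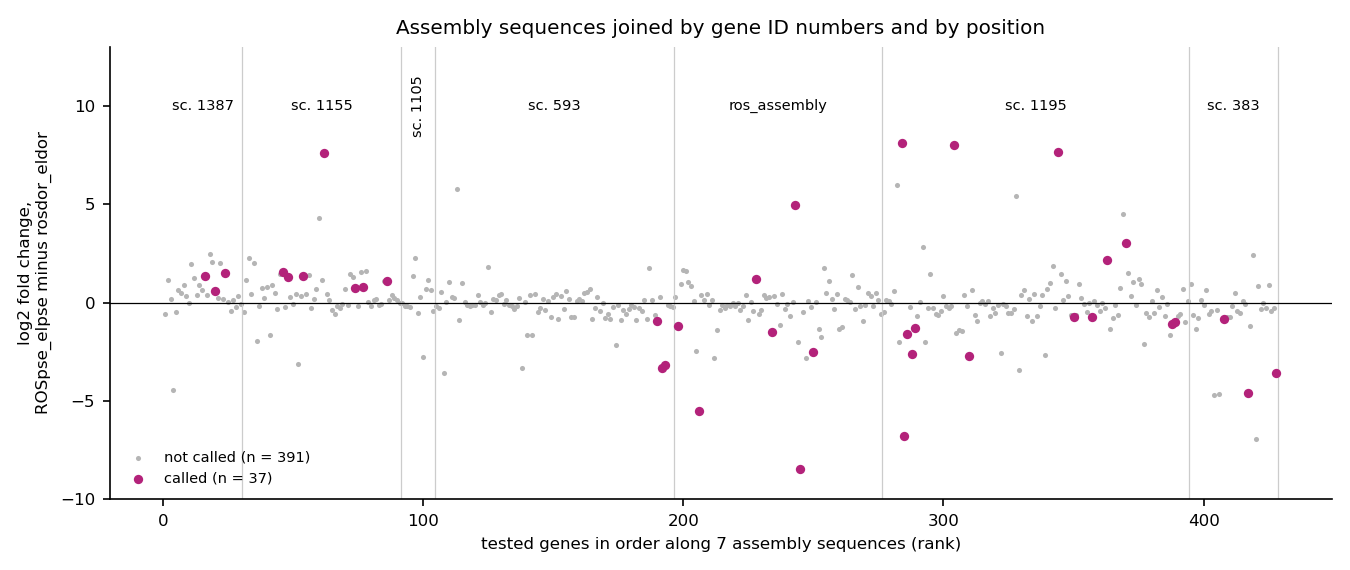
Log2 fold change (magenta ROSpse_elpse minus white rosdor_eldor) of the 428 tested genes of 7 assembly sequences (sc. stands for scaffold), in order of position along sequences arranged by gene ID numbers and, across the jump within ros_assembly, by position. Magenta points are the 37 called genes; the called genes of scaffold1387 and scaffold1155 all lie above 0 and those of scaffold593 and scaffold383 all below.

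In the pairs that share no library with the magenta and white plants, the same 7 sequences held 7 called genes for ROSpse_ELstr against rosstr_ELstr (1.64%, against 0.454% of all tested genes) and 23 for ROSji7_ELstr against rosstr_ELstr (5.37%, against 1.18%). A second run of ID numbers joined scaffold1933, scaffold1258 and scaffold808, with 10 of 159 tested genes called (6.29%), 1 higher and 9 lower. Its most marked member was AnMG0003514000 of scaffold1933, which was near 0 in the wild magenta plants and in 1 ROSpse_ELstr plant. Outside both runs 80 genes were called (0.332%).

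Few of the 127 genes were called in the same direction in pairs without a shared library, although their shares exceeded those of all tested genes called there. ROSpse_ELstr against rosstr_ELstr sets the same pseudomajus ROS allele against a recessive one, with the dominant EL allele in both, and gave 112 calls (0.454%). Of these, 6 were called in the same direction (4.72% of the 127 and 5.36% of the 112) and 1, AnMG0004255200, in the opposite one. Among the 6, 5 were higher (against 0.267% of tested genes called higher in that pair) and 1 lower (against 0.186%). The 6 were AnMG0000139000 and AnMG0000144700 of ros_assembly, AnMG0004603900, AnMG0000994800 and AnMG0005275600, all higher with the ROS allele, and AnMG0001002600, lower. AnMG0000994800 and AnMG0005275600 have the same counts and the same placement (scaffold202 4061 to 5825, plus strand), so they may be 1 gene under 2 IDs; every count here takes them as 2.

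AnMG0004603900 (scaffold380 538700 to 543018, plus strand) was at 90.2, 115 and 113 CPM in magenta and 51.2, 48.1 and 40.0 in white corollas. Its log2 fold change was 1.19 ± 0.18 here and 0.97 in ROSpse_ELstr against rosstr_ELstr (SE; edgeR adjusted p 0.0108 and 0.0291). AnMG0000994800 was at 1.31, 0.795 and 0.683 CPM against 0, 0 and 0.0283, and at 0.786 CPM in ROSpse_ELstr, with 0 in rosstr_ELstr and both JI7 genotypes. Like AnMG0000139000, it was high only with the full pseudomajus ROS allele, and it stood at 0.0187 CPM with the recombinant allele of rosrec_elpse. The call of AnMG0004603900 ended without white replicate 3 or magenta replicate 2, at up to 0.0663. That of AnMG0000994800 ended without white replicate 2 or 3 or magenta replicate 1 or 2, at up to 0.0836 (edgeR adjusted p).

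ROSji7_ELstr against rosstr_ELstr gave 291 calls (1.18%), of which 13 were shared in direction (3 higher, against 0.543% of tested genes called higher in that pair, and 10 lower, against 0.636%). The 3 higher genes were AnMG0000144700, AnMG0000524600 and AnMG0207956200. Lower in both were AnMG0000378900, AnMG0001032000 and AnMG0003286500 of scaffold383, and the neighbours AnMG0004103200 and AnMG0004103300 of scaffold1363 (534139 to 541198). AnMG0001025500 of scaffold1195 and AnMG0004749400 of scaffold1088 were lower too. So were AnMG0002936000, AnMG0005037700 and AnMG0006390400. In these last genes white and magenta libraries overlapped, and the direction between them turned with plant family as a term. AnMG0001032000 (156929 to 160918, minus strand) was at 15.6, 11.1 and 11.7 CPM in magenta and 19.6, 24.8 and 25.0 in white corollas, and at 9.05 CPM in ROSji7_ELstr, with 23.6 to 27.2 in the other 4. AnMG0004103200 was at 16.5, 12.7 and 17.9 CPM against 25.7, 32.4 and 34.4, and AnMG0004103300 at 6.66, 5.52 and 14.8 against 30.6, 19.2 and 25.9. They fell by 0.86 ± 0.18, 0.98 ± 0.16 and 1.48 ± 0.32 on the log2 scale (SE; edgeR adjusted p 0.0427, 0.0140 and 0.0464). Leaving out single libraries raised these p to at most 0.196, 0.0683 and 0.196, and each of the 3 calls ended without white replicate 2 or 3 or magenta replicate 1 or 2. AnMG0001032000 lost its call also without magenta replicate 3, and AnMG0004103300 without white replicate 1.

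The direction was opposite for 5 other called genes of this pair, all of them on scaffold593 or ros_assembly: AnMG0005864900, AnMG0005865300, AnMG0005865600, AnMG0005869000 and AnMG0000146600. They were lower in magenta than in white corollas here, and higher in eluta ROSji7_ELstr than in white rosstr_ELstr. In both pairs the plants with stock-line ROS alleles were the higher ones. AnMG0000146600 had log2 fold changes of -8.46 and 9.40 (edgeR adjusted p 0.00228 and 4.45e-04), and AnMG0005869000 of -5.53 and 4.81 (0.0263 and 0.0234).

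Against all 4 other coloured genotypes together, a comparison added after the values were seen, rosstr_ELstr differed in 336 genes (1.36%). Of the 127, 9 were called there in the same direction, 3 higher with colour (AnMG0000139000, AnMG0000144700 and AnMG0000524600; 0.527% of tested genes were called higher there) and 6 lower (0.835%), and 9 in the opposite one. These 2 equal counts are 7.09% of the 127 each way. Of the 3 higher genes only AnMG0000144700 was higher in each coloured genotype than in rosstr_ELstr. AnMG0000139000 was high in ROSpse_ELstr alone of these 4, and AnMG0000524600 was lower in ROSpse_ELstr (0.264 CPM) than in rosstr_ELstr (0.469). Among the lower genes, AnMG0208611300 (C8780467 1 to 1165, plus strand) averaged 25.5 CPM in the wild magenta and 71.2 in the rosdor_eldor corollas, 72.8 in rosstr_ELstr and 29.6 to 61.9 in the other coloured genotypes. AnMG0003531600, 1 of the scaffold808 genes, averaged 7.19 and 39.2 CPM in magenta and white, 47.9 in rosstr_ELstr and 15.7 to 24.3 in the others. By means, both were thus lower in every coloured genotype than in either white one, but single plants overlapped. AnMG0208611300 was at 81.0 CPM in ROSji7_ELstr replicate 1, against 69.1, 71.8 and 72.7 in the rosdor_eldor plants. AnMG0003531600 was at 35.1 CPM in rosrec_elpse replicate 2, against 25.5 in rosdor_eldor replicate 2. The other lower genes were AnMG0000442700, AnMG0002936000, AnMG0005037700 and AnMG0006390400. Their means were higher in ROSpse_ELstr (5.57, 43.3, 3.16 and 34.4 CPM) than in rosstr_ELstr (4.95, 32.3, 2.47 and 23.7), so they were not lower in every coloured genotype. Their levels went with plant family, as given below. The call of AnMG0208611300 held only without white replicate 1, at an edgeR adjusted p of up to 0.121. That of AnMG0003531600 ended without white replicate 3 or magenta replicate 2 or 3, at up to 0.0679.

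The difference between the effect here and that of ROSpse_ELstr against rosstr_ELstr was tested directly. It was called for 82 genes above 0 (0.332%) and 92 below 0 (0.373%), together 0.705% of tested genes, and 43 of the 127 were among them (33.9%). For AnMG0000144700 and AnMG0000139000 the differences were 0.69 and -0.43 on the log2 scale with SE of 1.05 and 0.16 (edgeR adjusted p 0.903 and 0.278). Neither passed the threshold, although the second lay more than 2 SE from 0. For AnMG0000146600 the difference was -11.63 (edgeR adjusted p 0.0153).

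Levels of some called genes went with plant family, among them the 3 in which white and magenta libraries overlapped. AnMG0002936000 (scaffold83 1300686 to 1308719, plus strand) was at 0.516, 0.376 and 0.465 CPM in magenta plants of family A181. Among white plants it was at 0.253 CPM in replicate 1, of A181, but at 27.1 and 21.8 in replicates 2 and 3, of A174 and A182. AnMG0006390400 (scaffold81 106470 to 109856, minus strand) was at 0.281, 0.335 and 0.776 CPM against 0.379, 23.1 and 23.0. AnMG0005037700 (scaffold451 747540 to 766830, minus strand) was at 0.0469, 0 and 0 CPM against 0, 1.81 and 1.72. All 3 genes were also high in ROSpse_ELstr (A174) and rosstr_ELstr (A182), at means of 43.3 and 32.3, 34.4 and 23.7, and 3.16 and 2.47 CPM. They were low in ROSji7_elji7, ROSji7_ELstr and rosrec_elpse, at no more than 2.03 CPM. AnMG0000442700 (scaffold195 286272 to 287115, plus strand) showed the same form without overlap, at 0.938, 0.460 and 0.341 CPM in magenta and 1.01, 4.33 and 4.33 in white plants, with means of 5.57 in ROSpse_ELstr and 4.95 in rosstr_ELstr. The 4 plants of A181, the white one included, lay apart from the 8 plants of A174 and A182 in 29 of the 127 called genes (22.8%, against 6.33% of tested genes), a description, since 6 of these plants chose the genes. The part of family in these differences was not tested beyond the fit with a family term.

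**Figure D4:**
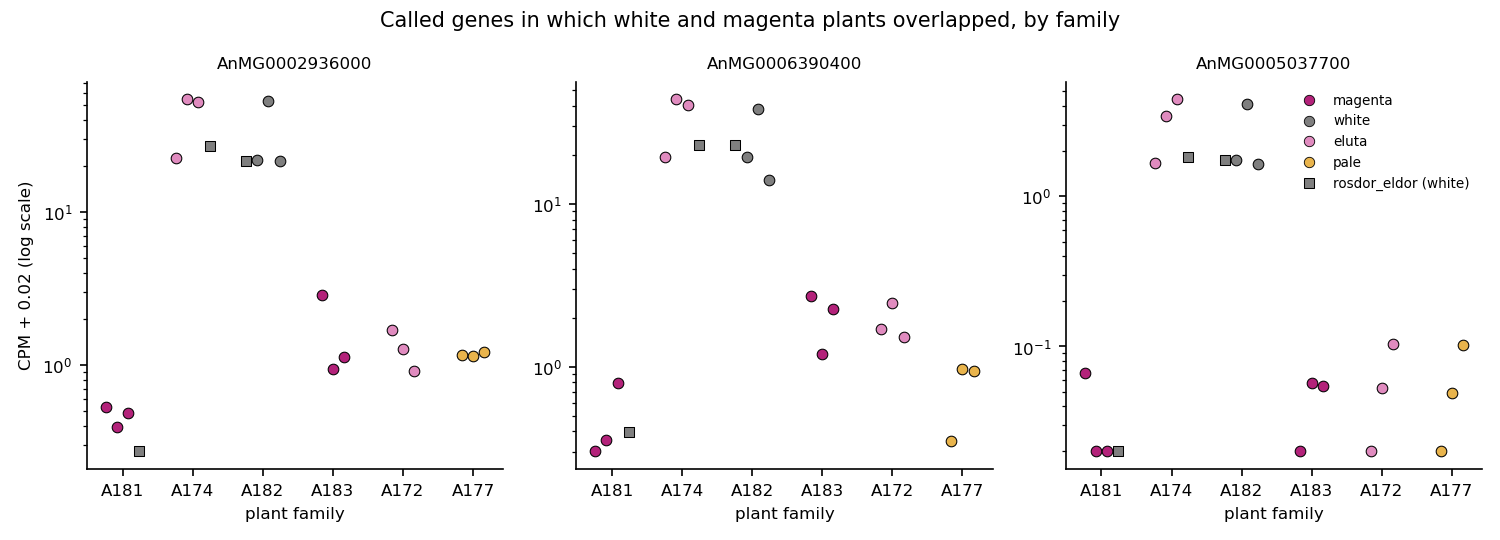
CPM plus 0.02 on a log axis, by plant family, of the 3 called genes in which white and magenta plants overlapped. Colours give the corolla colour of the labels and squares the white rosdor_eldor plants; every plant of families A174 and A182 is high and every plant of A181 low, the white one included.

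With plant family as a term, the comparison rests on the magenta plants and the 1 white plant of A181, with the spread pooled over all plants. There 34 genes were called (0.138%), and 5 of them were among the 127. These were AnMG0000139000, AnMG0000140900 and AnMG0000146600 of ros_assembly, AnMG0000156400 of scaffold1195 and AnMG0003531600 of scaffold808. The direction with the term is no check in the 124 genes whose libraries did not overlap, since any white plant gives it there. The 3 other genes turned: AnMG0002936000, AnMG0006390400 and AnMG0005037700 had log2 fold changes of 0.83, 0.33 and 2.01 in place of -5.18, -5.03 and -6.15 (edgeR adjusted p with the term 0.829, 0.938 and 0.904). AnMG0000442700 moved from -2.51 to -0.82 (edgeR adjusted p 0.0292 and 0.615). For AnMG0000139000, AnMG0000140900 and AnMG0000146600 the log2 fold changes with the term were 1.29, -1.43 and -9.13 (edgeR adjusted p 0.00602, 0.0176 and 0.00186).

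Across the fits that left out 1 of the 6 libraries, 9 of the 127 genes were called every time. They were AnMG0000139000, AnMG0000140900 and AnMG0000146600 of ros_assembly, AnMG0000146610, AnMG0000156400, AnMG0000896310 and AnMG0001002600 of scaffold1195, AnMG0005825900 of scaffold1155 and AnMG0000378900 of scaffold383. All 9 lay on the 7 sequences joined by ID number and position, which held 29.1% of the calls and 1.73% of tested genes. Those sequences were joined after the calls were seen, so this is a description.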

How the data were processed

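For each library the authors deposited a Salmon table of 51926 transcripts. The deposited estimated count (expected count) is not normalised, and the deposited TPM was scaled by Salmon to 1 total for all libraries. The submitters' processing notes name cutadapt 1.16, Salmon 0.9.1 and DESeq2, with no role. Salmon settings and the use of strand are not given in the sources used here. Positions, 1-based on JICv1 per the file name, come from a deposited placement file; the authors' alignment score was used only to pick a placement, with ties going to the first sequence by name. TPM entered no test.

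Transcripts were summed to 37234 genes by ID and rounded. Genes that reached 0.5 CPM in 3 or more libraries (24674) were tested with edgeR 4.0.16, quasi-likelihood F test (R 4.3.3, TMM), 1 mean per genotype over 21 libraries, and an adjusted p (Benjamini-Hochberg) under 0.05 made a call. Standard errors are absolute log2 fold changes over the root of F. Against a group at 0 the fold is a lower bound from 3 counts for the whole group; a group with 1 to 3 counts gives a ratio with a 95% interval; both cover counting error only. Library totals of the 6 plants ran from 8926585 to 34576676 estimated reads. Replicates differed by more than sampling noise (chi-square per degree of freedom 41.9 to 94.4). Each library is a different plant, so p-values measure the spread between plants within genotypes. In every genotype but rosdor_eldor these plants were of the same family. The spread between families thus enters only through the white plants of rosdor_eldor.

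On counts simulated for this comparison, edgeR found 22% of 100 genes with a 2-fold change and 65% of 100 with a 4-fold change, and 7 unchanged calls among 24314 genes; DESeq2 recovered 40% and 79%, with 44.

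The members and lists were chosen with earlier results of these data known. Named genes are the 8 largest rises and 8 largest falls among called genes that did not overlap and reached a mean of 1 CPM, all calls on ros_assembly, the 4 most abundant by TPM, the 3 smallest p per sequence with at least 4 calls, and calls shared with the eluta pairs, 47 in all. Other named genes, the runs of ID numbers and the splits of genotypes were chosen after their values were seen. Pigment and corolla marker lists could not be matched without gene names and were not run. Alternatives were DESeq2 1.42.0, its size factors in edgeR, no filter, a term for library number series or for plant family, a fit of only the groups compared, the middle number series alone and each replicate left out. White and magenta replicates 1 are of the low number series and the other 4 plants of the middle one.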

Additional observations from a re-analysis of the deposited data

Results flagged for a closer look

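The effect of magenta ROSpse_elpse against white rosdor_eldor differed from that of ROSpse_ELstr against rosstr_ELstr in 82 genes upward and 92 downward by edgeR's test of the difference itself (Benjamini-Hochberg adjusted p under 0.05). The pairs share no library. Of the genes named by rule, 22 were among them, and their values below are log2 fold changes of the first pair minus those of the second. Among genes higher in wild magenta corollas, the differences were 11.98 for AnMG0006039410, 11.91 for AnMG0207956200, 10.49 for AnMG0002921300, 8.21 for AnMG0005825900, 8.19 for AnMG0000146610, 7.40 for AnMG0000896310 and 6.09 for AnMG0000524600. Smaller differences were 2.45 for AnMG0006425900, 1.46 for AnMG0005820800 and 1.01 for AnMG0005830400. Values of genes with a group at or near 0 depend on the prior count and are no bound.

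Among genes lower in wild magenta corollas, the differences on ros_assembly were -11.63 for AnMG0000146600, -8.33 for AnMG0005869000, -1.64 for AnMG0005867200 and -1.26 for AnMG0000140900. On scaffold808 they were -3.10 for AnMG0003527500 and -2.61 for AnMG0003529500, and on scaffold1088 -4.38 for AnMG0004749400 and -3.29 for AnMG0004728700. AnMG0003514000 of scaffold1933 had -8.44 and AnMG0000378900 of scaffold383 had -3.62. AnMG0002936000 and AnMG0006390400, whose levels went with plant family, had -5.61 and -5.56.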

How the results depend on the processing

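The 127 calls became 709 by DESeq2, 34 with plant family as a term, 21 with only the groups compared (11 of the 127) and 33 in the middle library number series alone (20 of the 127). They were 118 with DESeq2 size factors and 87 without the filter, and also within 1.5 times the count with the number series as a term. Leaving out 1 library of the 6 gave 13 to 189 calls, 19 and 24 without white replicates 2 and 3, and 26, 13 and 59 without magenta replicates 1, 2 and 3. Leaving out a library of another genotype, added after the values were seen, gave 80 to 159, with 84 without ROSji7_ELstr replicate 2, and 84 and 80 without rosrec_elpse replicates 2 and 3. The 7 calls on ros_assembly were 13 by DESeq2, 3 with family, 1 with only the groups compared, 3 in the middle series and 3 to 6 over the leave-outs. The differences called (82 above and 92 below 0) were 680 by DESeq2, 10 with family, 32 with only the groups compared, 22 in the middle series and 55 to 266 over the leave-outs; 266 was without white replicate 1, and 55 and 56 without magenta replicate 2 and ROSpse_ELstr replicate 2. The 6 calls shared with ROSpse_ELstr against rosstr_ELstr were 27, 1, 0 and 1 in these settings and 1 to 6 over the leave-outs, 1 being without ROSpse_ELstr replicate 3. The 13 shared with ROSji7_ELstr against rosstr_ELstr were 83 by DESeq2, 2 with only the groups compared, 5 in the middle series and 2 to 25 over the leave-outs, 25 without white replicate 1 and 2 without white replicate 3. The 336 calls of the 4 coloured genotypes against rosstr_ELstr were 901 by DESeq2 and 116 to 318 over the leave-outs, 142, 116 and 221 without rosstr_ELstr replicates 1, 2 and 3. Family could not be fitted to these last comparisons, and the last one could not be had in the middle series. Among the 47 named genes, 318 values over all settings kept direction and side of the threshold, 271 kept direction only, and 3 turned with plant family as a term, AnMG0002936000 to 0.83, AnMG0005037700 to 2.01 and AnMG0006390400 to 0.33. For genes whose libraries did not overlap, the choice of genes fixes the direction. The cause of these shifts was not tested, except that a fit of fewer plants has fewer degrees of freedom. No paired analysis was possible because replicate numbers were given in accession order and pair no plants. Depth limits low genes most in white replicate 1, with 8926585 estimated reads.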

Other observations

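The transcripts that made up a gene's count were compared in the 39 called genes with several transcripts, as values with no test. In AnMG0000157700, transcript T01 held 87.0% of the estimated reads summed over white libraries, while T03 held 67.1% over magenta ones and 7.52% in white. The magenta share rested on only 45.2 estimated reads, against 751 in white. In AnMG0003069000 the leading transcripts were T03 with 34.7% in magenta and T01 with 58.1% in white, on 8318 and 1683 reads. In AnMG0005812300 of scaffold1387 they were T01 with 60.1% and T02 with 59.3%. In AnMG0005820800, AnMG0006425900 and AnMG0006818900 the same transcript led in both groups, with 79.8% to 94.9% of the reads. Of the called genes, 89.0% were placed at 100% identity, against 86.9% of tested genes, and 25 overlap another gene on the same strand.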
